A study of Mus musculus with 2 samples.

Results

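Liver sinusoidal endothelial genes, 10 in number, were followed in wild-type mice and in mice without Pnpla8, a phospholipase that releases fatty acids from membrane phospholipids. They were all probes, other than control spots, that carried the name of Lyve1, Stab1, Stab2, Cdh5, Tek, Kdr, Clec4g, Oit3, Pecam1 or Gpr182 on the array, and they make 10 of the 31044 gene names it holds, with 11 probes on 20 spots. There were 2 one-colour arrays, 1 for each genotype (WT and Pnpla8-/-), both of the strain C57BL/6N, and no treatment is named in the labels. Each array held liver RNA pooled from 5 animals according to the series design, which states 8 weeks of age where the sample labels state 6 weeks. The sex of the animals, the part of Pnpla8 that was removed and the diet of the animals were not stated in the labels. With a single pool of each genotype, no value has a replicate and genotypes could not be tested against each other. An effect of the genotype cannot be told apart from one of the pool or of the array's place on the slide.

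Liver sinusoidal endothelial cells line the capillaries between the rows of hepatocytes. Their wall has open pores and almost no basement membrane, so plasma reaches the hepatocytes directly, and the cells take up hyaluronan, modified lipoproteins and other waste molecules through scavenger receptors. Vascular endothelial growth factor, angiopoietins and local Wnt and BMP signals keep them in this state, and its loss, called capillarization, is a known feature of chronic liver injury. In whole-liver RNA, fewer cells of a type and less RNA in each cell cannot be told apart.

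The probes are 60 bases long, and for most members 1 probe carries the whole measurement. Kdr is the exception, with 2 probes whose values disagree, and these are shown first, followed by the probe of the member with the largest difference and by those of Tek and Pecam1, whose signals were nearest to background. Where a line states it, the first 30 of the 60 bases are given.
Kdr upstream probe: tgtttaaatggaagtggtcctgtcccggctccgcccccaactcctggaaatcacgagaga
Kdr downstream probe, first 30 bases: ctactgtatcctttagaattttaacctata
Lyve1 probe, first 30 bases: cactttgtgtgcctttaacaaatacattat
Tek probe: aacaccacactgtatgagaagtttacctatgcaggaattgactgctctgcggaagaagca
Pecam1 probe: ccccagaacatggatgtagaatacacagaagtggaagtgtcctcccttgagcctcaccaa
The file headers name mm9 as the build of the array design. On it the upstream Kdr probe lies at chr5:76330395-76330454 and the downstream one at chr5:76329309-76329368, both on the minus strand, starting at bases 4291 and 5377 of the same transcript. The Lyve1 probe lies at chr7:117994171-117994230 and the Pecam1 probe at chr11:106540864-106540923, both on the minus strand, and the Tek probe at chr4:94540624-94540683 on the plus strand. The exon and the part of the transcript that each probe matches were not given in any source at hand.

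All 10 members were well above background on both arrays, so the label holds in the sense that every defining gene was detected in both livers. No member spot was saturated or marked as an outlier. Levels below are the processed signal, which is the spot's brightness after background subtraction, in arbitrary units, with the error that the scanner software assigns to it. Ratios are log2 of knockout over wild type after each array was divided by its 75th percentile (1207 in wild-type and 1018 in knockout RNA), so a gene that looks dimmer on the knockout array can still have a ratio near 0. The error of a ratio combines the errors of both spots. It was 0.20 to 0.21 for each member, and it covers the array reading and not the spread between animals. It was nearly the same for bright and dim members, and it was larger than the median SD of 0.05 between repeated spots of a probe. Pnpla8 itself gave a signal of 144.5 in the wild-type pool against 4.45 in the knockout pool, the latter not well above background.

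The sinusoidal endothelial genes were slightly lower in the knockout pool, with a median log2 ratio of -0.23 against 0.04 for all 19394 measured genes. Of the 10, 7 had a ratio below 0, where 43.3% of all measured genes did. The largest difference was that of Lyve1, 1.58-fold lower, and it was the single member at least 1.5-fold lower, a size that 6.00% of all genes reached. With normexp, a model-based background correction with an added offset, Lyve1 had -0.58 and no member reached 1.5-fold. The median of all genes was then 0.08, and ratios of dim genes could move above 0, as for Ntn4 from -0.004 to 0.20. Neither direction held a member at 2-fold, where 1.85% of all genes were lower and 1.30% higher, and none was 1.5-fold higher (4.42% of all genes). The remaining 3, Stab2, Kdr and Pecam1, had ratios between 0.02 and 0.03 by the scaling used here and below 0 without scaling.

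**Figure D1:**
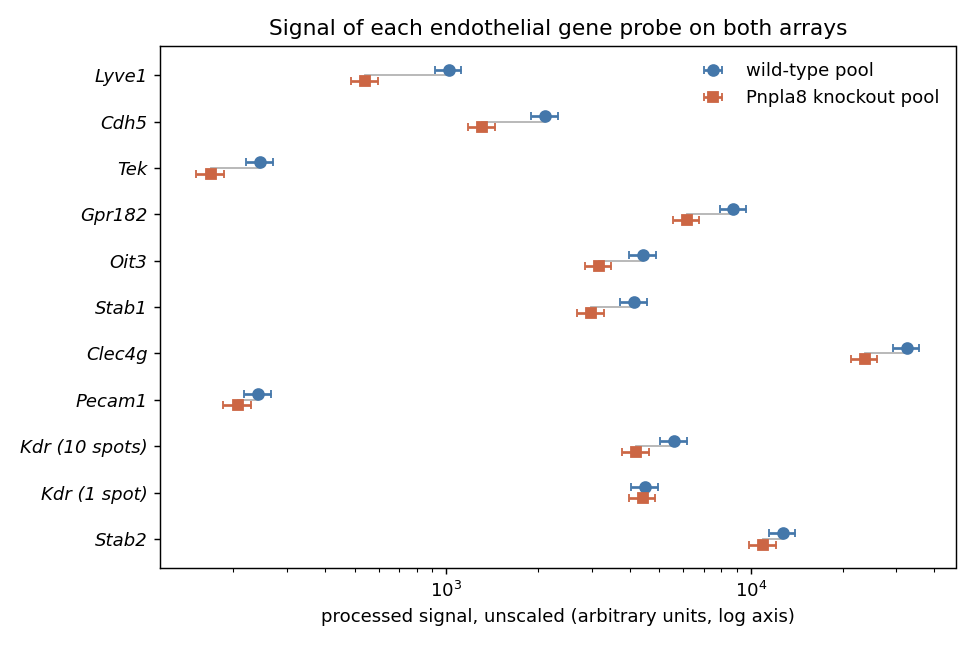
Processed signal of each probe (horizontal, log axis, arbitrary units, not scaled between arrays) in the wild-type pool (circles) and the Pnpla8 knockout pool (squares), 1 array each; bars are the scanner software's error of a spot, and the 10-spot Kdr probe is drawn at its mean. The knockout signal is the lower one in every row, by the most for Lyve1 (1018 against 542) and the least for the 1-spot Kdr probe (4499.65 against 4409).

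Of the scavenger and lectin receptors, 1 stood apart. Lyve1, the hyaluronan receptor that marks sinusoidal and lymphatic endothelium, read 1018 ± 102 in the wild-type pool and 542 ± 54.4 in the knockout pool. The error bars of these 2 readings did not overlap, also after scaling, and the log2 ratio was -0.66 ± 0.20. Of all measured genes, 4.89% had a lower ratio, and for no other member was that share as small. Stab1, the scavenger receptor stabilin-1, read 4144 ± 414 in wild-type and 2994 ± 299 in knockout RNA. Its ratio of -0.22 ± 0.20 was little more than its error.

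Stab2, or stabilin-2, is the main clearance receptor for hyaluronan on these cells and a close relative of Stab1. It read 12697 ± 1269.7 in the wild-type pool and 10969.5 ± 1097 in the knockout pool, with a log2 ratio of 0.03 ± 0.20. After scaling, the readings of the 2 pools overlapped within their errors for Stab2 and for Stab1. The error bars of the 2 ratios overlapped, so by the software's error the stabilins were not separated from each other. Clec4g, the C-type lectin LSECtin, read 32430.2 ± 3243 in wild-type and 23603 ± 2360.3 in knockout RNA. Its ratio was -0.21 ± 0.20.

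Among the signalling receptors, Tek, the angiopoietin receptor also called Tie2, read 245 ± 24.7 in the wild-type pool and 168 ± 17.4 in the knockout pool. After scaling the 2 readings overlapped within their errors, and the ratio was -0.29 ± 0.21. Gpr182, an endothelial receptor that binds and scavenges chemokines, read 8757 ± 876 in wild-type and 6154 ± 615 in knockout RNA. Its ratio was -0.26 ± 0.20, within the error of that of Tek.

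Kdr, the main signalling receptor for vascular endothelial growth factor, gave 2 different answers. The downstream probe was spotted 10 times and read from 5207 to 5844 in the wild-type pool, with a median of 5611, and from 3963 to 4505 in the knockout pool, with a median of 4189.9. After scaling the spots of the 2 pools overlapped, with the highest knockout spot at 2.15 and the lowest wild-type spot at 2.11 on the log2 scale. All 10 ratios of knockout to wild-type spot were below 0, from -0.22 to -0.09, with a mean of -0.17 and an SD of 0.04 between spots. The upstream probe, on 1 spot, read 4499.65 in wild-type and 4409 in knockout RNA, and its ratio was 0.22 ± 0.20. The ratios of the 2 probes differed by 0.38 on the log2 scale. Over 3349 genes with exactly 2 measured probes the median difference was 0.12, and 15.6% of those genes had a larger one, so the disagreement was wide but not rare. The value of 0.02 given for Kdr is the midpoint of these and describes neither probe.

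**Figure D2:**
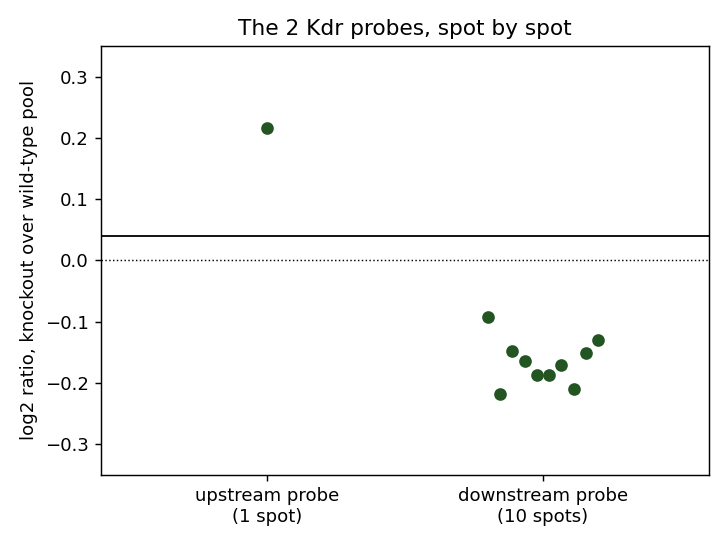
Log2 ratio of knockout over wild type (vertical) of every Kdr spot, for the upstream probe (1 spot) and the downstream probe (10 spots, set side by side in no order); the solid line is the median of all genes and the dotted line marks 0. The 10 downstream spots lie between -0.22 and -0.09 and the upstream spot at 0.22.

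Of the junction genes, Cdh5, which encodes VE-cadherin, the adhesion molecule of endothelial cell contacts, read 2112 ± 211 in the wild-type pool and 1313 ± 131 in the knockout pool. The readings stood apart, also after scaling, and the ratio was -0.44 ± 0.20, or 1.36-fold lower, next in size after Lyve1. Lyve1 and Cdh5 were the 2 members whose ratio was more than 2 errors from 0, and 9.12% of all genes had a ratio lower than that of Cdh5. Pecam1, the adhesion molecule CD31, read 242 ± 24.5 and 207 ± 21.2, which overlapped, with a ratio of 0.02 ± 0.21. Oit3, whose secreted product carries a zona pellucida domain and which in liver marks sinusoidal endothelium, read 4434 ± 443 in wild-type and 3166 ± 317 in knockout RNA, with a ratio of -0.24 ± 0.20. In all, 7 members had a ratio larger than its own error and 3 did not. The share of all genes past their own error was not counted. Many genes lay as far from 0, since 19.1% had a ratio below the -0.21 of Clec4g and the 75th percentile of all genes was 0.21.

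**Figure D3:**
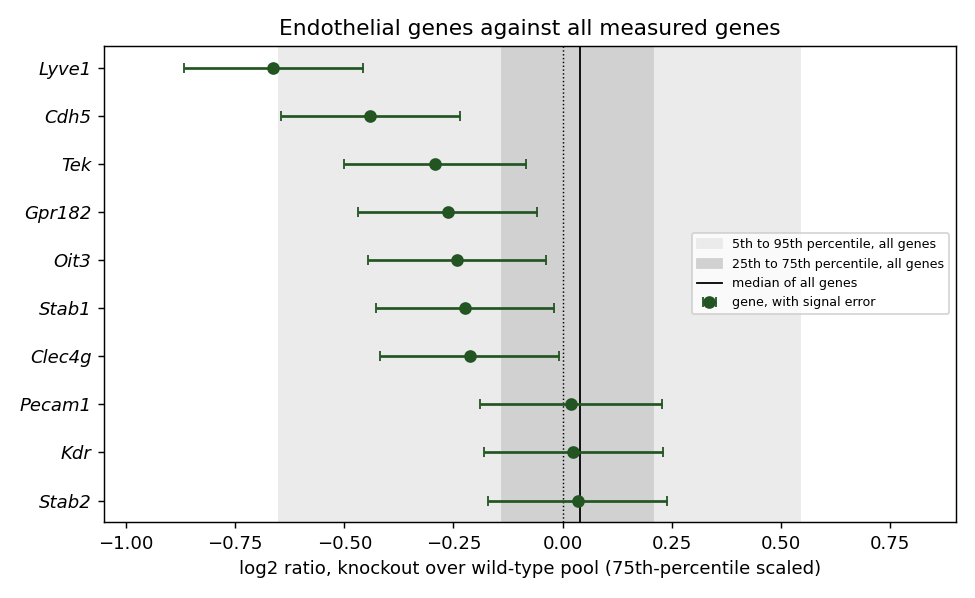
Log2 ratio of knockout over wild-type pool (horizontal) of the 10 genes, sorted, with bars for the combined signal error of both spots; the dark band runs from the 25th to the 75th percentile and the light band from the 5th to the 95th of all 19394 measured genes, and the solid line is their median of 0.04. Lyve1 at -0.66 is at the edge of the light band, 6 further genes lie between -0.44 and -0.21, left of the dark band, and Pecam1, Kdr (drawn at the midpoint of its 2 probes) and Stab2 lie within it.

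Of the members, 7, from Lyve1 to Clec4g, lay in the lowest 25% of all ratios (below -0.14), as did the downstream Kdr probe at -0.17, so the place of Kdr depends on the probe. Stab2 and Pecam1 lay near the median of all genes, at 0.03 and 0.02. Neighbours from Cdh5 to Clec4g differed by less than their errors, so no order among them can be read. Among 11133 genes whose wild-type level lay within the members' range, the median ratio was 0.03 and 44.2% were below 0, close to the values over all genes.

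Base composition of the probes moved with these values. The 4 member probes with 30 to under 40% G and C, those of Lyve1, Cdh5, Oit3 and the downstream Kdr probe, had ratios from -0.66 to -0.17. The 5 probes with 40 to under 50% had -0.29 to 0.03, and the 2 with 50 to under 60%, those of Pecam1 and the upstream Kdr probe, had 0.02 and 0.22. The ranges of the first 2 classes overlapped, and the member medians were -0.34, -0.22 and 0.12, from few probes each. Over all measured probes the medians in these 3 classes were 0.01 (8399 probes), 0.05 (11026) and 0.07 (4389), the same order over a much smaller range. The part of base composition in the members' ratios was not tested.

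Other endothelial genes were examined from lists that do not share genes with the 10. Shares of all genes at 1.5-fold and 2-fold were counted only in the main setting. Without scaling the median of all genes was itself -0.21, so counts given for other settings have no share to set beside them. Of 17 further sinusoidal genes, 16 were measured, with a median ratio of -0.13, 13 of them below 0, and 1 at least 1.5-fold lower (3 without scaling, 0 with normexp). That gene was Msr1, a scavenger receptor that macrophages also carry, at -0.68 (-0.47 with normexp), followed by the mannose receptor Mrc1 at -0.40 and the receptor kinase Kit, which marks the pericentral side of the sinusoid, at -0.39. Among the genes for the signals these cells send to hepatocytes, Wnt2 had 0.26, Wnt9b -0.22, Rspo3 -0.27 and Bmp2 0.11, the last below 0 without scaling and when the arrays were scaled to added E1A control RNAs (spike-in scaling). Gata4, the transcription factor that maintains sinusoidal identity, had -0.13, and Maf -0.09. Bmp6 was not analysed, because its spot carried an outlier mark.

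Of 25 genes of endothelium in general, 24 were measured with a median of -0.15, 21 below 0 and none at least 1.5-fold lower (5 without scaling, 4 with spike-in scaling). The lowest were the transcription factor Fli1, which leukocytes also express, at -0.58, the adhesion molecule Icam2 at -0.55 and Ecscr, an endothelial surface protein, at -0.50. Of the sister receptors of the members, Tie1, the partner of Tek, had -0.11, nearer to 0 than Tek at -0.29. Flt1, the other receptor for the growth factor that Kdr binds, had -0.07. That lay between the downstream Kdr probe at -0.17 and the upstream one at 0.22. Flt4, a related receptor from the list of further sinusoidal genes, had -0.34 (-0.18 with normexp). Genes of larger vessels and ordinary capillaries had members on both sides. Of 14, 11 were measured, with a median of 0.11 and a mean of -0.07, which differ in sign; the median was below 0 without scaling (-0.13) and with spike-in scaling (-0.05). Ly6a, which lymphocytes also express, had -0.95 and the Notch target Hey1 -0.60, both at least 1.5-fold lower, although Hey1 had -0.29 with normexp, while the Notch ligand Dll4 had 0.40. Of the genes known to be higher in capillarized sinusoids, Cd34 had -0.39, Plvap -0.21 and Vwf 0.20. Vwf was below 0 without scaling, and Cd34 had 0.08 when dim probes were kept. Aplnr, the apelin receptor, passed the background limit only in wild-type RNA, at 22.3 against 14.1, which makes it at least 1.05-fold lower. Of 4 lymphatic genes, 3 were measured, with Reln at -0.14, Prox1, a regulator that hepatocytes share, at -0.07 and Pdpn at -0.05. Pdpn was above 0 under 4 of 12 settings, and it had 1.17 when dim probes were kept.

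The ligands and partners of the members lay on both sides of 0. Of 18 genes, 16 were measured, 8 below 0 and 8 above, with a median of -0.02 that was 0.05 with normexp and above 0 under 5 of 12 settings. Has3, a hyaluronan synthase, was the single one at 1.5-fold, at 0.75, from signals of 31.1 and 44.1 that lay close to background, and it had 0.50 without scaling. Pgf, a ligand of Flt1, had -0.36 (-0.05 with normexp) and Nrp1, a co-receptor of Kdr, -0.35 (-0.28 with normexp). Vegfa, the ligand of Kdr, had 0.08. Angpt1 and Angpt2, the ligands of Tek, had 0.01 and -0.31, the latter -0.09 with normexp. Ctnnb1 and Ctnnd1, catenins that bind VE-cadherin, had -0.14 and 0.10. Hyal1 and Hyal2, which break down hyaluronan, had 0.19 and 0.20. Without scaling Vegfa, Angpt1, Ctnnd1, Hyal1 and Hyal2 were below 0.

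Markers of other liver cells did not all move in the direction of the members, and those that did moved to different degrees. All 16 Kupffer cell and macrophage genes were at least 1.5-fold lower (15 with normexp) and 6 at least 2-fold (15 without scaling), with ratios from -1.34 to -0.68. The highest of them, Fcna at -0.68, lay within the error of Lyve1, and Cd163 had -0.18 with normexp. Csf1r, at -0.82, is the median of 3 probes that ran from -0.96 to -0.17. Each of the 16 was well above background in both pools. Their summed unscaled signal in the knockout pool was 41.7% of that in the wild type, where it was 74.4% for the 10 members. For the remaining lists it ran from 69.2% (platelet genes) to 96.5% (hepatocyte genes), with 75.1% for lymphocyte genes. Each sum took the brightest probe of every measured gene, so a few bright genes weigh most. Of the wild-type sum of 4115 for lymphocyte genes, Nkg7 gave 2322, from a probe with a ratio of -0.04, and Cd3e 1165. Pf4 gave 610 of 725 for platelet genes, and Clec4g 32430 of 71670 for the members. The 75th percentile of the arrays was itself lower in the knockout pool, 1018 against 1207. Marco, Cd5l and Adgre1 were the lowest at -1.34, -1.22 and -1.16. Lyve1, Stab1, Mrc1 and Msr1 are also expressed by some macrophages, and Pecam1 by leukocytes and platelets. The part of macrophage RNA in the values of Lyve1 and Stab1 was not tested. Of 6 lymphocyte genes, 5 were measured with a median of -0.69, with Cd3d at -1.35, Ms4a1 at -1.34, Nkg7 at -0.69, Cd79a at -0.60 and Cd3e at -0.06. The value of Nkg7 is the midpoint of 2 probes at -1.35 and -0.04. Cd8a passed the background limit only in wild-type RNA, at least 1.07-fold lower. With normexp the lymphocyte median was -0.39.

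Stellate cell genes lay in the range of the endothelial ones, with a median of -0.13 over 8 genes, 5 below 0 and 3 above. Des, Lrat and Pdgfrb were lowest at -0.40, -0.32 and -0.27, although Des, a dim gene, had -0.03 with normexp. Hand2, Ecm1 and Dcn had 0.08, 0.06 and 0.03, each below 0 without scaling. The 4 measured platelet genes had a median of -0.12, with Ppbp at -0.40 (0.02 with normexp), Pf4 at -0.33 and Gp1bb at 0.13. Cholangiocyte genes had -0.11 over 5 genes, from Epcam at -0.20 (0.12 with normexp) to Sox9 at 0.20, with Krt19 at -0.11. With normexp the platelet and cholangiocyte medians were above 0, at 0.07 and 0.06, where the median of all genes was 0.08. The 7 measured hepatocyte genes had a median of 0.21 (-0.04 without scaling), from Apoa1 at -0.15 to Alb at 0.24, with Serpinc1 and Hnf4a both at 0.23. Compared with these lists, the median of the 10 sinusoidal genes lay above those of macrophages and lymphocytes and below those of the other lists. None of these differences could be tested with 1 array for each genotype, and none is particular to the sinusoidal genes on this evidence.

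**Figure D4:**
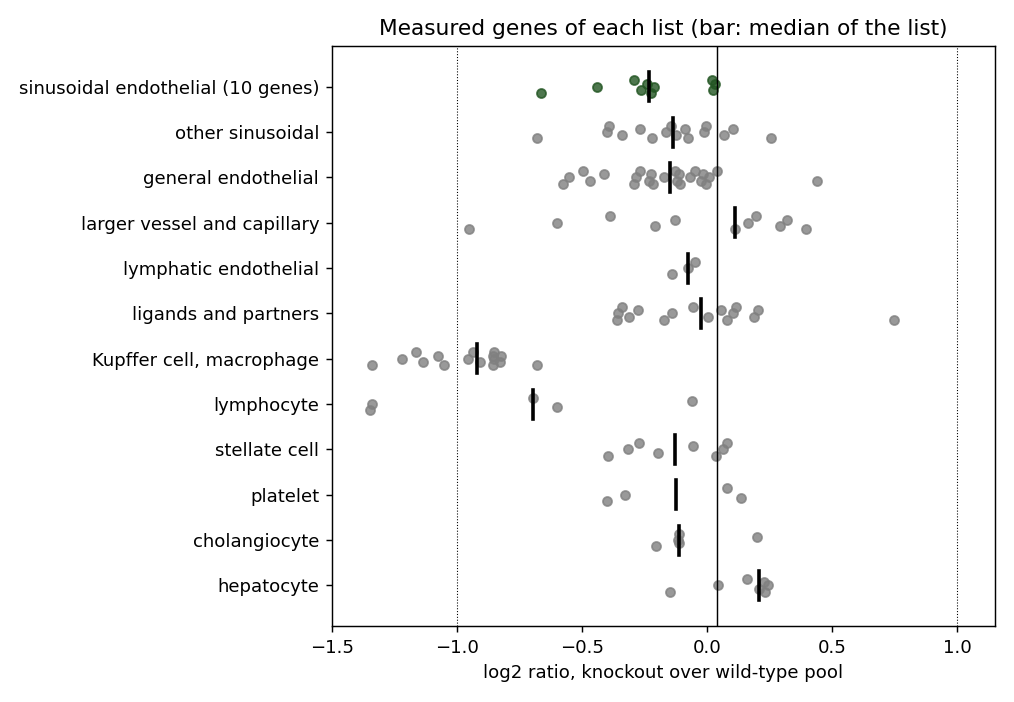
Log2 ratio of knockout over wild-type pool (horizontal) of each measured gene, grouped by list, with a bar at the list's median; the solid line is the median of all genes and the dotted lines mark 2-fold. The 10 sinusoidal genes spread from -0.66 to 0.03, while the 16 Kupffer cell and macrophage genes all lie at -0.68 or below and 6 of the 7 hepatocyte genes above 0.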

How the data were processed

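Total liver RNA was amplified and labelled with Cy3 and hybridised to 1 array for each genotype. The authors read the scans with Agilent Feature Extraction (version 11.5.1.1, as the submitters' processing notes state), and the deposited intensity is linear, background-subtracted and not normalised between arrays. The deposited value table equals the processed intensity divided by a constant for each array (1207 and 1019), with column medians of 0.0800 and 0.0763; it is linear and not centred, and no source at hand says how the constants were chosen.

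Control spots and spots with an outlier mark on either array were left out (896 marked on the wild-type and 913 on the knockout array). Signals were divided by each array's 75th percentile and put on a log2 scale, spots of a probe were averaged, and a gene took the median over probes well above background on both arrays (70.1% and 65.6% of 43020 spots passed). Of 39429 probes, 28330 were named by accession and 2378 by symbol through the RefSeq table of GRCm38.p6; the other 8721 had the name in the array file. For genes measured in the wild type alone, a bound was taken against the lowest signal well above background on the knockout array. Repeated spots of a probe had ratios with a median SD of 0.05 (297 probes), and different probes of a gene 0.10 (4045 genes).

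No test was possible, so genes were counted at 1.5-fold and 2-fold. The genes and lists were chosen with earlier results of these data known. All 10 members, the 3 genes of every other list with the largest absolute ratio, and genes measured on 1 array were named by rule; other named genes were picked for their role after their values were seen. No likeness of pattern between genes was sought, since 2 arrays give none. The ratio steps were tested on simulated data. Python 3.11.15, pandas 2.3.3, numpy 2.4.6, statsmodels 0.14.6 and limma 3.58.1 in R 4.3.3 were used.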

Additional observations from a re-analysis of the deposited data

How the results depend on the processing

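The 10 genes were recomputed under 12 other settings: 5 scalings (to the array median, by quantiles, by loess at a span of 0.3, to 8 E1A spike-in controls, and unscaled), normexp background correction (offset 50), the authors' value table, 2 further ways to summarise probes, 2 filters and the array file's own gene names. Relative to the median of all genes, that of the members was 0.27 lower in the main setting and from 0.34 to 0.27 lower in the others. Most settings could not alter this much. Dividing an array by another constant leaves the difference as it is, as with the array median, the spike-in controls, the value table and no scaling. Members with 1 probe also kept their ratio under the probe, filter and name settings. Quantile scaling, loess scaling and normexp could alter it and gave -0.34, -0.29 and -0.29. Without scaling the median over members was -0.48 and with the spike-in controls -0.39, together with all genes (-0.21 and -0.12). In these 2 settings 2 members, Lyve1 and Cdh5, were at least 1.5-fold lower, and with normexp 0 were. The share of all genes at that size was not counted under these settings. No setting put a member at 2-fold. The ratio of 7 members stayed below 0 under all 12 settings, Lyve1 between -0.91 and -0.58. Kdr was below 0 under 6 settings, Stab2 under 4 and Pecam1 under 2. All 10 members lay below the median of all genes except under quantile and loess scaling, where 9 did. In the main setting Stab2, Kdr and Pecam1 lay almost on that median, at -0.005, -0.015 and -0.020 from it, far less than their errors. The upstream Kdr probe alone, at 0.22, lay above it. No paired analysis was possible because each genotype has 1 array, which also leaves no replicate to omit. Signals of Has3, Aplnr and Cd8a lay near background, where ratios are least certain.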
